A study of Mus musculus with 3 samples.

Results

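Platelet transcript positive barcodes were cell barcodes from mouse left ventricle in which the UMIs (unique molecular identifiers, 1 per captured RNA molecule) of Ppbp, Gp9, Clec1b and Itga2b summed to at least 8. The members were chosen by these measured UMIs among barcodes of 500 UMIs and 300 genes or more whose mitochondrial share did not pass 20%, and RNA of other cells in the same droplet was not a reason for exclusion. In all, 111 of 45239 barcodes met the rule. They came from 3 libraries, 1 per group and each made from 4 pooled samples of C56Bl6 left ventricle: 21 from Control (standard diet for 10 weeks, no vector named), 33 from HFpEF-scr (6 weeks on a High-Fat + L-NAME diet, with AAV-scramble-sh for 4 weeks) and 57 from the HFpEF-FoxO1-sh group (that diet for 6 weeks, with AAV-FoxO1-sh for 4 weeks). HFpEF is heart failure with preserved ejection fraction, L-NAME blocks nitric oxide synthases, and AAV is an adeno-associated virus vector. The promoter that drives the hairpins is not given in the sources used here. Control mice differed from both other groups in diet and in vector together, so these cannot be told apart. Per the labels' protocols, cardiomyocytes were held back on a 70 µm strainer, and red cell lysis and a debris removal step came before loading. With 1 library per group there was no replicate, so libraries rather than conditions were compared and no test was run. All intervals are exact 95% intervals that cover counting error only. UMIs of a gene come in clumps by barcode, so intervals on summed UMIs are too narrow.

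Platelets are small cell fragments without a nucleus that megakaryocytes release into the blood, and they carry RNA packed by their parent cell. At a damaged vessel wall they bind von Willebrand factor through the GPIb-IX-V complex, of which Gp9 encodes a subunit, and bind fibrinogen through integrin alpha IIb beta 3, encoded by Itga2b and Itgb3. Clec1b encodes CLEC-2, the receptor for podoplanin, a membrane protein of lymphatic endothelium and some stromal cells. Ppbp encodes an alpha granule chemokine, and Treml1 encodes a receptor stored in alpha granules. CLEC-2 on platelets and podoplanin on lymphatic endothelium keep blood and lymph vessels apart during development.

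All 4 rule genes are protein-coding. On GRCm38 (mm10), with GENCODE vM21 gene models, Ppbp (ENSMUSG00000029372) lies on the plus strand at chr5:90768518-90770063, and Pf4, another platelet chemokine gene, starts downstream of it on the same strand at chr5:90772435-90773383. Gp9 (ENSMUSG00000030054) is at chr6:87778072-87779768 on the plus strand, Clec1b (ENSMUSG00000030159) at chr6:129397297-129409335 on the plus strand, and Itga2b (ENSMUSG00000034664) at chr11:102453297-102470122 on the minus strand. The 250 bases before the RefSeq start (GRCm38.p6) are shown for Ppbp (chr5:90768268-90768517), Gp9 (chr6:87777820-87778069) and Clec1b (chr6:129397047-129397296), because these genes appeared together in the members. Capitals mark matches, on either strand, to GATA letters (AGATAA or AGATAG or TGATAA or TGATAG) or ETS letters (GGAAGT or GGAAGC), the families of megakaryocyte factors such as GATA1 and FLI1.
Ppbp: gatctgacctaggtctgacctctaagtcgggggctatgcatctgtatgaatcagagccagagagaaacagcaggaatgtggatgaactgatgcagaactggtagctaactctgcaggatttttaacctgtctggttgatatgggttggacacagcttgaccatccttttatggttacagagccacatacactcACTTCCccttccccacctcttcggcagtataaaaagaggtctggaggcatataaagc
Gp9: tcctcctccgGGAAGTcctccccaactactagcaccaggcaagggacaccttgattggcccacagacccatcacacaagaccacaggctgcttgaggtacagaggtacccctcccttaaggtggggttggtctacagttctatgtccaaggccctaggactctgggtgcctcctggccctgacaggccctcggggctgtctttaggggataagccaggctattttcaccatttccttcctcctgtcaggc
Clec1b: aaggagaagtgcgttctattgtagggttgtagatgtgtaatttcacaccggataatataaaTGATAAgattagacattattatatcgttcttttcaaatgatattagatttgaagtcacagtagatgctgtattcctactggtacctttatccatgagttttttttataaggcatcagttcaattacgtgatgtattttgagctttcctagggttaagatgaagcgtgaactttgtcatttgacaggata
Ppbp and Gp9 each held 1 ETS match and no GATA match, and Clec1b held 1 GATA match and no ETS match. Of 32851 promoters of this length, 26.5% held a GATA match and 37.0% an ETS match, and no motif occurred in all 3 sequences. The window before Itga2b held 2 ETS matches and overlaps the GENCODE gene model, so its letters are not printed. A match is a description of the letters and not a measured binding site.

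The 3 libraries held 33022, 36179 and 27453 barcodes with 146230530, 154385813 and 144561934 UMIs (Control, HFpEF-scr and HFpEF-FoxO1-sh). The median mitochondrial share over all barcodes was 24.6%, 22.1% and 11.7%, and 39.2%, 41.2% and 63.3% of barcodes passed the filters. Past the filters, pairs of libraries shared between 38 and 65 barcode sequences. Foxo1, the target named by the hairpin label, was at 61.3, 56.4 and 60.1 counts per 1000000 UMIs (CPM) in the other barcodes past the filters, so in the library labelled HFpEF-FoxO1-sh it was not below HFpEF-scr, the other vector group, and was slightly below Control. In members Foxo1 had 8, 15 and 34 UMIs, or 46.7, 52.5 and 68.4 CPM, with intervals of 20.2 to 92.0, 29.4 to 86.5 and 47.4 to 95.6. The label is therefore used as a name only.

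Members were a small share of every library, and the share was highest in the library labelled HFpEF-FoxO1-sh. They made up 0.162% of Control barcodes past the filters (21 of 12939, interval 0.10% to 0.248%), 0.221% in HFpEF-scr (33 of 14909, 0.152% to 0.311%) and 0.328% in the library labelled HFpEF-FoxO1-sh (57 of 17391, 0.248% to 0.424%). The HFpEF-scr share was 1.36 times that of Control (0.766 to 2.48), and the share in the library labelled HFpEF-FoxO1-sh was 1.48 times that of HFpEF-scr (0.948 to 2.35), so neither ratio was outside counting error. The library labelled HFpEF-FoxO1-sh against Control, a comparison added after seeing the data, gave 2.02 (1.21 to 3.51). With barcodes of up to 50% mitochondrial UMIs included, the 3 ratios were 1.10 (0.705 to 1.73), 1.51 (1.02 to 2.24) and 1.66 (1.10 to 2.53). The median mitochondrial share of the libraries was lower where the member share was higher, and its part in the difference was not tested.

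**Figure D1:**
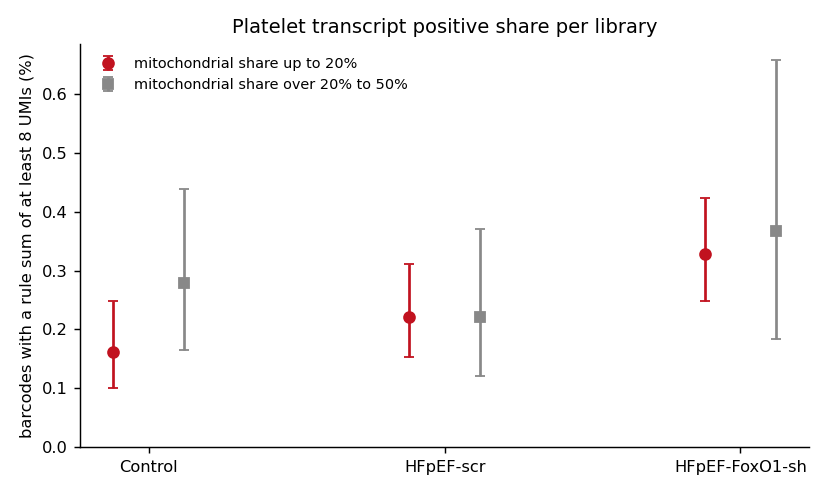
Share of barcodes with a rule sum of at least 8 UMIs in each library (y axis, percent), for barcodes with up to 20% mitochondrial UMIs (circles, the members) and for those over 20% and up to 50% (squares). Bars are exact 95% binomial intervals. Member shares were 0.162%, 0.221% and 0.328%, and the high mitochondrial barcodes, which are no members, had 0.278%, 0.221% and 0.368%.

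The values that chose the members are given as a description. The rule sum ran from 8 to 204 UMIs in Control (median 17), from 8 to 231 for HFpEF-scr (median 13) and from 8 to 128 for HFpEF-FoxO1-sh (median 13). Sums of 8 or 9 were seen in 3, 11 and 17 members, and sums of 32 or more in 7, 5 and 6, so Control had few members close to the cut. Ppbp supplied 52.2% of the rule UMIs over all members, Clec1b 22.8%, Gp9 12.95% and Itga2b 12.0%. All 4 genes were present in 72 of 111 members, 3 genes in 28, 2 genes in 7 and 1 gene in 4. Ppbp had a UMI in 109 members, Clec1b in 102, Itga2b in 91 and Gp9 in 88.

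Genes outside the rule also marked the members as carriers of platelet RNA. Treml1 had a UMI in 69 of 111 members, with 0 to 22 UMIs and a median of 1, and in 0.167% of the 42421 barcodes with no rule UMI. Nrgn, which encodes the calmodulin-binding protein neurogranin and is abundant in platelet RNA, had 0 to 131 UMIs in members, with a median of 10. It was present in 106 members and in 3.60% of barcodes without a rule UMI. Pf4, a platelet chemokine that heart macrophages also express, had 0 to 161 UMIs in members (median 13), and was present in 110 of them, but also in 20.7% of barcodes without a rule UMI. In 781 barcodes led by the B cell list, a lineage that should lack these genes, 1.28% had any rule UMI at a median depth of 2853 UMIs. That share was 5.93% in non-member barcodes led by the fibroblast list, at 6826 UMIs, where Itga2b had a UMI in 3.20% and Ppbp in 2.07%.

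The cut did not separate a distinct class. Of the 31 barcodes with a rule sum of 8 or 9, 41.9% had Treml1 and 96.8% had Nrgn. Of the 55 barcodes with a sum of 6 or 7, just outside the rule, 40% had Treml1 and 94.5% had Nrgn. All 18 barcodes with a sum of 32 or more had Treml1, Pf4, Nrgn and Alox12.

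**Figure D2:**
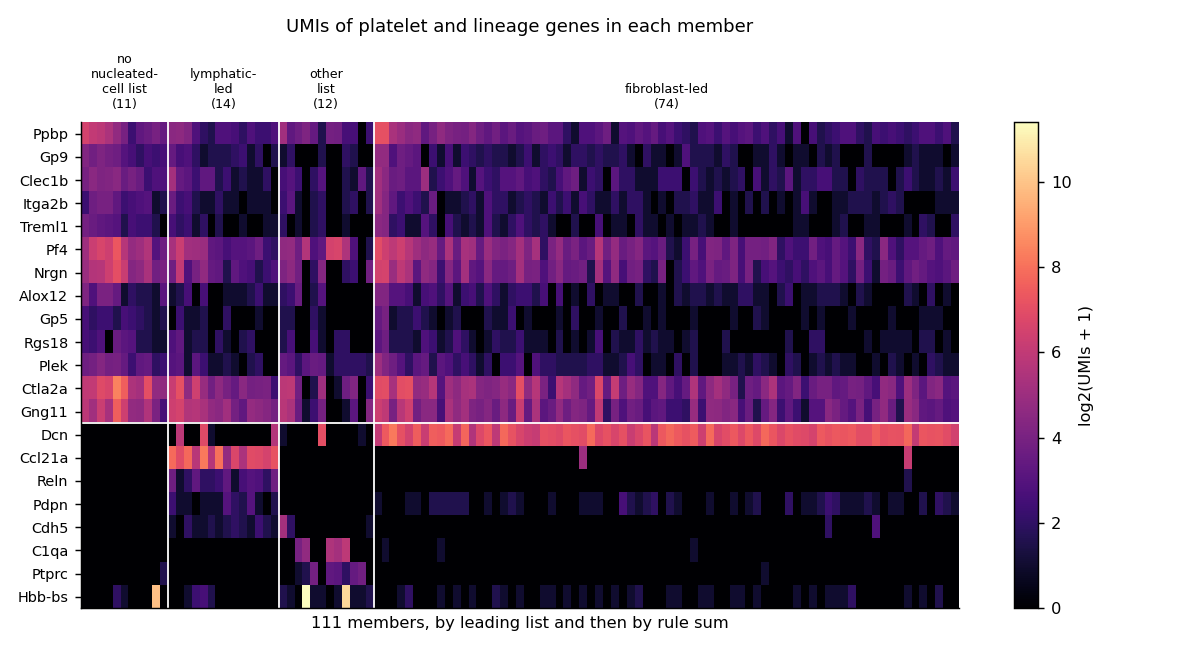
UMIs of platelet genes (above the white line) and lineage genes (below it) in each of the 111 members, as log2(UMIs + 1), with members in columns ordered by leading lineage list and then by rule sum. Platelet genes are present across all 4 blocks, Dcn fills the block of 74 fibroblast-led members, Ccl21a fills the block of 14 lymphatic-led members, and the 11 members without a nucleated-cell list have neither.

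Among genes with a UMI in at least 50% of members, the marker genes and Nrgn had the highest ratios of members over other barcodes. Over all libraries the CPM in members was 349 times that of other barcodes for Ppbp, 292 times for Treml1, 247 times for Clec1b, 240 times for Gp9 and 86.3 times for Itga2b, and as the rule chose 4 of these genes the ratios are a description. The next ratios were those of Nrgn (107, above Itga2b), Alox12 (82.6), Cd226 (42.6), Ctla2a (32.6), Rgs18 (22.6) and Itgb3 (19.3). Alox12 encodes platelet-type 12-lipoxygenase, Cd226 an adhesion receptor, and Rgs18 a regulator of G protein signalling found in platelets. Parvb (16.7), Fermt3 (14.8), Stx11 (13.9) and Prkar2b (13.1) closed the list of 15. Fermt3 encodes kindlin-3, which activates integrins, and Stx11 a membrane fusion protein needed for granule release.

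Several known platelet genes were sparse, at high ratios over other barcodes. Gp5, a subunit of the von Willebrand factor receptor, had a UMI in 53 members and a CPM 326 times that of other barcodes. Gp1ba, the subunit of the GPIb-IX-V complex that binds von Willebrand factor, had a UMI in 5, 8 and 15 members of Control, HFpEF-scr and HFpEF-FoxO1-sh, and Gp6, the collagen receptor, in 10, 11 and 20. The ADP receptor gene P2ry12 was seen in 7, 11 and 21 members and the serotonin transporter gene Slc6a4 in 8, 9 and 12. Tubb1, the platelet beta tubulin, was seen in 9, 7 and 15 members. In other barcodes past the filters no more than 0.242% had a UMI of Gp1ba, Gp6 or Tubb1. Selp, which encodes P-selectin, had 1, 3 and 2 UMIs in all, and F2rl3, which encodes the thrombin receptor PAR4, had 0, 1 and 0.

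Genes of megakaryocyte and progenitor nuclei had few UMIs in members. Gata1, the transcription factor of the megakaryocyte and red cell lineages, had 3, 2 and 3 UMIs in the 3 libraries (Control, then HFpEF-scr, then HFpEF-FoxO1-sh), in 6 members altogether. Gata2 had 11 UMIs in 10 members. Kit had 2 UMIs in 1 member, and Mki67, a gene of dividing cells, had none in 111 members. No member reached 8 UMIs of the proliferation list (exact upper bound 3.27%), beside 0.521% of other barcodes, so 111 members were too few to show a difference. The stem or progenitor list reached 8 UMIs in 40 members (36.0%, others 23.7%), with 25 members within 2 UMIs of the limit. The list holds Cd34, which fibroblasts are known to express. Cd34 had 594 UMIs in members led by the fibroblast list, in 72 of 74, and 0 in the 11 members without a nucleated-cell list. Its part in the count was not tested.

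Most members carried RNA of another cell in the same droplet, most often of fibroblasts, whose list was about as frequent in other barcodes. Each lineage was scored by the UMI sum of a short marker list, with 8 UMIs as the limit. The fibroblast list (Dcn, Pdgfra, Col1a1, Dpt, Lum and Tcf21) passed in 78 of 111 members, 70.3% (60.9% to 78.6%), beside 73.0% of other barcodes past the filters. No member lay within 2 UMIs of that limit: 24 members had no fibroblast UMI, and the median was 153. The endothelial list passed in 20 members (18.0%, others 9.07%), of which 13 were led by the lymphatic list, and 1 of 1766 barcodes led by the endothelial list was a member (0.0566%). The lymphatic endothelial list (Prox1, Flt4, Ccl21a and Reln) passed in 16 (14.4%, others 2.03%) and the erythroid list, mainly haemoglobin, in 15 (13.5%, others 3.78%). The macrophage list passed in 6 members (5.41%, others 12.7%) and the monocyte list in 7 (6.31%, others 3.97%). Of those 7, 5 were led by the fibroblast list with 8 to 14 monocyte UMIs, and 9 members lay within 2 UMIs of the monocyte limit. The neutrophil list passed in none. Of the 287 barcodes that reached the neutrophil limit 0 were members, with an exact upper bound of 1.28% (1.05% by 3 counts of the total).

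Only 7 members passed no list, 64 passed 1 list and 40 passed at least 2. Of the 40, 5 held the fibroblast and the lymphatic list together. Scrublet, which scores doublets by likeness to simulated ones, marked 4 of 111 members: 1 from Control, 1 from HFpEF-scr and 2 from HFpEF-FoxO1-sh. Of everything kept by the filters, members included, it marked 1.41% (Control), 2.29% (HFpEF-scr) and 3.09% (HFpEF-FoxO1-sh). A difference from these rates was not tested. The droplets thus held platelet RNA as the label says, but most of these barcodes were not platelets alone. Whether a platelet was bound to the other cell, shared its droplet by chance or left free RNA there was not tested.

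Each barcode was also given to its leading list, the list with the most UMIs, a grouping chosen after seeing the data. Fibroblast-led members numbered 13 in Control, with 23 for HFpEF-scr and 38 for HFpEF-FoxO1-sh, and lymphatic-led members 2, 4 and 8. Another 4, 2 and 5 members had no list of a nucleated cell at 8 UMIs, and 12 fell under other lists. Median UMIs were 8760 in the fibroblast-led group, 5352 in the lymphatic-led group and 3134 in the group without a nucleated-cell list.

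**Figure D3:**
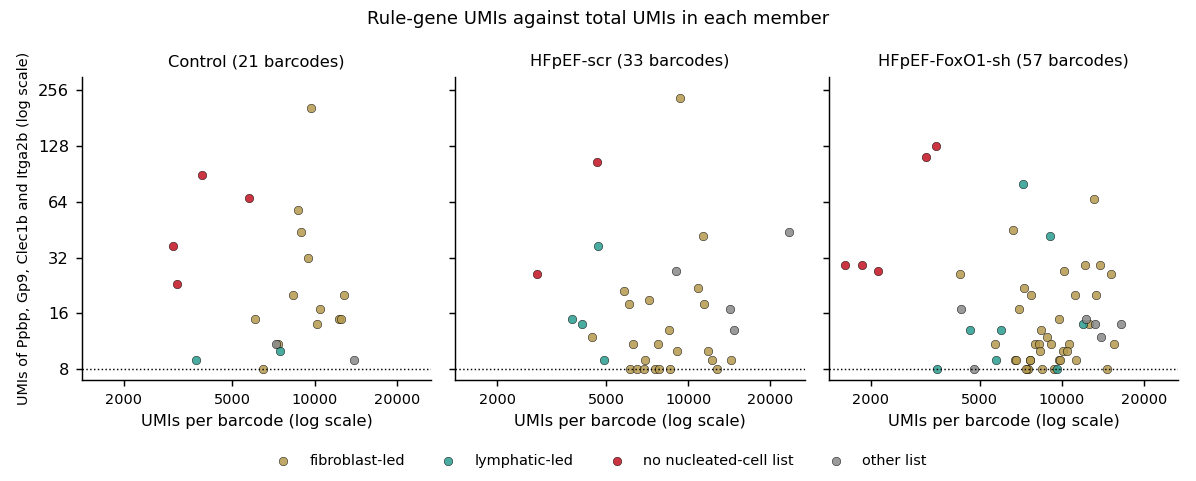
UMIs of the 4 rule genes against total UMIs for each member (both axes logarithmic), by library and coloured by leading lineage list; the dotted line is the cut at 8. Members without a nucleated-cell list sit at low totals, 1604 to 5750 UMIs, with rule sums of 23 to 128.

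The 11 members without a nucleated-cell list came nearest to platelets alone. They had 343 to 1109 genes (median 744) and rule sums of 23 to 128 (median 37), all well above the cut. The rule genes made up 1.90% of their UMIs, against 0.234% in fibroblast-led and 0.325% in lymphatic-led members. Dcn, Ccl21a and Pdpn had no UMI in any of the 11. Every platelet gene of the rule, and also Nrgn, Alox12, Gp5, Plek and Pf4, had a UMI in each of them, and Treml1 in 10. Tmsb4x, which encodes the actin-binding peptide thymosin beta 4, took 13.7% of their UMIs, Ctla2a 3.22% and Pf4 1.76%. Mitochondrial genes took 15.4% and ribosomal protein genes 2.98%. One exception stood out: a HFpEF-scr barcode with 2805 UMIs held 1488 of haemoglobin, so red cell RNA was mixed into it.

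Platelet genes were set against the rule genes in each group. Per 1000 rule UMIs, Pf4 had 863 UMIs in fibroblast-led, 972 in lymphatic-led and 927 in members without a nucleated-cell list. Alox12 had 110, 85.4 and 122, Treml1 84.3, 74.7 and 98.2, and Nrgn 649, 623 and 778. Ctla2a ranged wider, with 1320, 1694 and 1698. Gng11, a G protein subunit gene that endothelium also expresses, was at 828, 1776 and 872, and was thus highest in the lymphatic-led group. The 12 members under other lists summed to 1841 for Pf4, 473 for Nrgn, 49.8 for Treml1 and 990 for Ctla2a. They include the 4 barcodes without a platelet profile that are described further on, 1 of them with 7.69 Pf4 UMIs per rule UMI. These sums therefore cannot be read as a difference in platelet RNA.

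Members were a larger share of lymphatic-led than of fibroblast-led barcodes in each of the 3 libraries, beyond counting error in the HFpEF libraries. Members were 0.939% of lymphatic-led barcodes in Control (2 of 213), 2.08% in HFpEF-scr (4 of 192) and 3.42% in the library labelled HFpEF-FoxO1-sh (8 of 234). Among fibroblast-led barcodes they were 0.143%, 0.228% and 0.331%. The ratio was 6.57 in Control (0.719 to 29.0), 9.14 in HFpEF-scr (2.30 to 26.7) and 10.3 in the library labelled HFpEF-FoxO1-sh (4.16 to 22.5), so the interval left out 1 in both HFpEF libraries and not in Control, which rests on 2 barcodes. Summed over libraries it was 9.08 (4.73 to 16.2), with 14 of 639 against 74 of 30653 barcodes. Non-members had a median of 6357 UMIs in the lymphatic-led and 6826 in the fibroblast-led group. All other nucleated lineages together gave 10 members of 11860 barcodes, 0.0843%, some of them without a platelet profile, as described further on.

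The 14 lymphatic-led members are described by the genes that grouped them and by others. Ccl21a, a chemokine of lymphatic endothelium, had 26 to 300 UMIs in each (median 117), and Reln was present in all of them. Their rule sums were 9 and 10 in Control, 9, 14, 15 and 37 in HFpEF-scr, and 8 to 80 in HFpEF-FoxO1-sh. Nrgn and Pf4 had a UMI in all 14, and Treml1 in 9. The fibroblast list also passed in 3 of them, with 65 to 153 UMIs, and 1 of these 3 was marked by Scrublet. Rule sums of 1 to 7 were seen in 17.3% of lymphatic-led non-members, 5.93% of fibroblast-led and 6.32% of macrophage-led ones. Mesothelial-led barcodes had 18.8%, dendritic-led 13.1% and endothelial-led 9.01%, but single rule genes made up much of the first 2. In mesothelial-led barcodes Itga2b had a UMI in 17.7%, and Ppbp, Gp9 and Clec1b in 0.552% each. In dendritic-led ones Clec1b had a UMI in 12.4% and Ppbp in 0%. Lymphatic-led non-members had Ppbp in 9.12%, Clec1b in 5.60%, Gp9 in 4.48% and Itga2b in 4.16%. Any rule UMI is thus not the same as platelet RNA.

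Pdpn, which encodes the podoplanin that CLEC-2 binds, was read in the same barcodes. In non-members it stood at 271 CPM in lymphatic-led barcodes (256 to 286), 79.7 in fibroblast-led (78.5 to 80.8), 17.6 in endothelial-led and 3.91 in macrophage-led ones. Mesothelial-led barcodes had the highest level, 426 CPM (399 to 453), and 0 of 181 were members, with an exact upper bound of 2.02% (1.66% by 3 counts of the total). Pericyte-led barcodes had 3.58 CPM and 0.347% members (2 of 576, 0.0421% to 1.25%). Monocyte-led ones had 2.93 CPM and 0.364% (2 of 550, 0.0441% to 1.31%). The fibroblast-led share of 0.241% lies inside both intervals and below the mesothelial bound. These small counts therefore cannot rank the lists by member share beside Pdpn. The monocyte-led member from Control carried no platelet profile, as described further on. Within fibroblast-led barcodes, Pdpn in members over non-members was 1.16 in Control (0.557 to 2.14), 1.49 for HFpEF-scr (0.966 to 2.21) and 1.25 for HFpEF-FoxO1-sh (0.884 to 1.72), and all 3 intervals include 1. These are levels side by side, and binding was not measured.

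**Figure D4:**
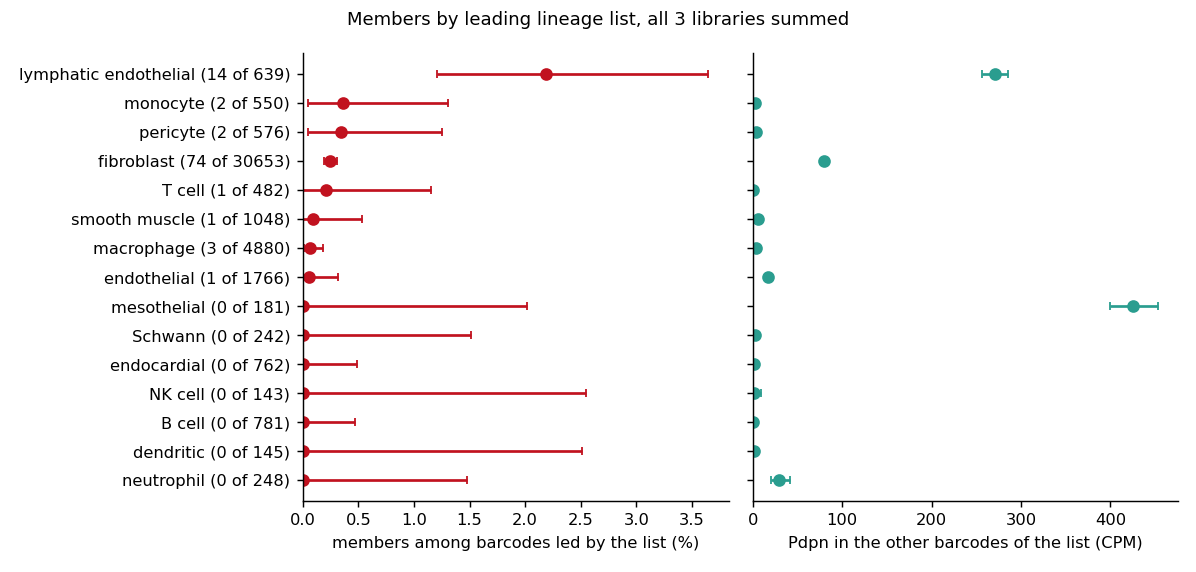
Left, members as a percent of barcodes led by each lineage list, all 3 libraries summed, with exact 95% binomial intervals; counts stand beside each name, and the lists without a nucleated cell and those leading under 50 barcodes are left out. Right, Pdpn in the non-member barcodes of the same list (CPM, exact Poisson 95% intervals). Lymphatic endothelium had 2.19% members and 271 CPM of Pdpn, and mesothelium 0 of 181 and 426 CPM.

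Fibroblast-led members had the fibroblast level of Dcn and, on top of it, platelet genes. Dcn, a collagen-binding proteoglycan, was at 1.05, 0.893 and 0.904 times the level of other fibroblast-led barcodes in the 3 libraries (Control, then HFpEF-scr, then HFpEF-FoxO1-sh). Of 2864 genes at 50 CPM or more in those other barcodes, 50 were at least 1.5-fold higher in members in all 3 libraries and 25 at least 1.5-fold lower. Ctla2a had the highest ratio of the first group in Control (102, 42.7 and 41.0 times), followed by Tsc22d1 (14.2, 9.61 and 6.88 times) and 1810058I24Rik (12.2, 7.19 and 8.12 times). Tmsb4x was 5.95, 4.15 and 3.42 times higher. These genes, and those of the next sentences, were named after their values were seen.

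The lower genes were of another kind. The class II antigen presentation gene H2-Ab1 had 0, 2 and 0 UMIs in fibroblast-led members, or 0, 10.0 and 0 CPM, against 72.7, 83.2 and 83.0 CPM in other fibroblast-led barcodes. Cd74, its chaperone, was at 0, 95.1 and 19.3 CPM against 195, 201 and 200, and all 19 UMIs in HFpEF-scr lay in 1 barcode. Cd74 had a UMI in 0, 1 and 5 members, and in 7.64%, 8.03% and 8.04% of other fibroblast-led barcodes. H2-Ab1 had a UMI in 0, 2 and 0 members, and in between 5.96% and 6.29% of the others by library. At such shares few positive members can be expected, so these counts cannot show that fewer members carried either gene. Wif1, which encodes a secreted Wnt inhibitor, had 0, 0 and 3 UMIs, and was detected in 6.21%, 6.19% and 4.15% of other fibroblast-led barcodes. Comp, a cartilage matrix gene, had 0, 1 and 3 UMIs. Fn1, which encodes the platelet ligand fibronectin, was at 32.5, 80.1 and 77.4 CPM against 123, 156 and 141. These rest on 13, 23 and 38 members, and at these levels a few barcodes can decide a ratio.

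A few members met the rule without the rest of the platelet genes. In 3 of them the whole rule sum was Ppbp, beside macrophage RNA: 2 HFpEF-scr barcodes with 13 and 17 UMIs of Ppbp, 100 and 49 of Pf4 and 37 and 25 of C1qa, a complement gene of macrophages, and 1 HFpEF-FoxO1-sh barcode with 14, 92 and 44. None of the 3 had Gp9, Clec1b, Itga2b, Treml1 or Nrgn. The HFpEF-scr barcode with 17 UMIs of Ppbp was led by the erythroid list, so it held red cell RNA too. In 1 Control barcode the whole sum was 9 UMIs of Clec1b, beside 13 UMIs of the leukocyte gene Ptprc and no Pf4. These 4 barcodes do not carry a platelet profile.

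Gene levels were compared between libraries as summed UMIs of members, with a ratio of at least 1.5 and an interval without 1 as the limit for calling a gene higher or lower. HFpEF-scr differed from Control at 397 of 3358 genes with at least 20 UMIs (11.8%), 228 higher (6.79%) and 169 lower (5.03%). The median log2 ratio over all tested genes was 0.06. The rule genes made up 0.425% of member UMIs in Control, with 0.290% for HFpEF-scr and 0.242% for the library labelled HFpEF-FoxO1-sh. In Control 4 of 21 members had no nucleated-cell list, in HFpEF-scr 2 of 33.

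Per UMI, several platelet lists held more genes called lower than higher in HFpEF-scr, beside a background of 5.03% lower. Set against the rule genes, 12 of 53 platelet genes were called higher and 4 lower, with a median ratio of 1.19, so the direction depends on the scale. Rule genes were 0.290% of member UMIs in HFpEF-scr and 0.425% in Control, so a gene unchanged per UMI reads higher on that scale. The 12 include genes that other cells also express, such as Cd36 and Fcer1g, and no share over all genes was taken there. Of 14 measured integrin activation genes 5 were lower and none higher, with a median log2 ratio of -0.35. They included Fermt3 (252 against 432 CPM, ratio 0.583, 0.415 to 0.817), Rasgrp2, which encodes the exchange factor that activates Rap1 (0.552, 0.363 to 0.837), and Rgs18 (0.599, 0.403 to 0.890). Per rule UMI the ratios were 0.855 for Fermt3 (0.610 to 1.20), 0.810 for Rasgrp2 (0.533 to 1.23) and 0.879 for Rgs18 (0.592 to 1.31), all with 1 inside, and Rap1b was at 1.64 (1.28 to 2.12). Of 6 von Willebrand factor and collagen receptor genes 2 were lower, Gp5 (0.474, 0.293 to 0.760) and Gp9 (339 against 654 CPM, 0.519, 0.391 to 0.687), but Gp9 chose the members, so its value is a description. Of 8 ITAM receptor and signalling genes 2 were lower. The 17 alpha granule cargo genes gave 15 measured, 3 lower and 2 higher. Nrgn, grouped with them, was at 1584 CPM in HFpEF-scr and 3644 in Control (0.435, 0.384 to 0.492), and Ctla2a at 3193 and 7947 (0.402, 0.369 to 0.437). Ppbp (0.747, 0.649 to 0.859), Clec1b (0.668, 0.535 to 0.835), Pf4 (0.675, 0.610 to 0.749) and Treml1 (0.828, 0.577 to 1.19) missed the limit.

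Of 20 platelet cytoskeleton genes 3 were higher and 1 lower, and of 8 leukocyte and stromal partner genes 2 were higher. Aspn (546 against 199 CPM, 2.75, 1.89 to 4.11) and Col5a2 (367 against 128, 2.86, 1.79 to 4.76), both matrix genes, were among the 10 highest ratios over all genes. Fibroblast-led members made up 13 of 21 in Control and 23 of 33 in HFpEF-scr, and the part of this in these ratios was not tested. Hspa1a (395 against 975 CPM), Jun (686 against 1185) and Fos (860 against 1320) were lower in HFpEF-scr members.

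Some of the highest ratios rested on single barcodes. Fabp4, a fatty acid carrier of capillary endothelium, had 712 UMIs in HFpEF-scr members and 4 in Control, with 499 of the 712 in 1 barcode. Hbb-bs had 3685 and 15 UMIs with 2693 in 1 barcode, and Hba-a1 1258 and 93 with 946 in 1. All 113 Il1b UMIs of HFpEF-scr lay in 1 barcode, and Ccl2 had 192 and 1 UMIs with 84 in 1 barcode. Cd36, a fatty acid receptor of endothelium and platelets, had 130 and 4 UMIs, of which 54 lay in 1 barcode. For Fabp4, Hbb-bs, Hba-a1 and Il1b, then, most of the UMIs came from 1 of 33 members.

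The library labelled HFpEF-FoxO1-sh differed from HFpEF-scr at 482 of 5296 genes (9.1%), 320 higher (6.04%) and 162 lower (3.06%), with a median log2 ratio of 0.11 over all tested genes. Scaled by UMIs outside mitochondrial and haemoglobin genes, 248 were higher and 218 lower. Most platelet genes were not called. No gene of the integrin activation (15 measured), cytoskeleton (20), granule secretion (9), eicosanoid (5) or agonist receptor list (5) was called in either direction. Gp9 was at 298 against 339 CPM (0.878, 0.675 to 1.15), Clec1b at 602 against 609 (0.989, 0.818 to 1.20), Treml1 at 203 against 266 (0.765, 0.562 to 1.04) and Nrgn at 1520 against 1584 (0.959, 0.853 to 1.08). Pf4 was at 2313 against 2781 CPM (0.832, 0.759 to 0.912).

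Of 15 alpha granule genes 2 were lower: F5, coagulation factor V (68.4 against 143 CPM, 0.477, 0.294 to 0.771), and Srgn, the granule proteoglycan serglycin (485 against 731, 0.664, 0.549 to 0.803). Fcer1g, the signalling chain of the collagen receptor that macrophages also express, was lower too (248 against 399 CPM, 0.621, 0.477 to 0.808), and 38 of its 114 UMIs in HFpEF-scr lay in 1 barcode. Cd36 was at 151 against 455 CPM. Foxo1 had a ratio of 1.30 (0.692 to 2.58).

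The clearest list was that of RNA integrity and stress genes, with 7 of 8 higher in the library labelled HFpEF-FoxO1-sh beside a background of 6.04%. Fos was at 1693 against 860 CPM (1.97, 1.70 to 2.28), Hspa1a at 1067 against 395 (2.70, 2.20 to 3.34), Hspa1b at 1634 against 790 (2.07, 1.78 to 2.41), Jun at 1212 against 686 and Malat1 at 13184 against 8748. Fosb, of the same immediate early family, was at 395 against 133 CPM (2.97, 2.09 to 4.32). In the other barcodes of the same libraries the levels differed less: Fos 1271 against 991 CPM, Hspa1a 1290 against 1106, Jun 1230 against 1019 and Malat1 16194 against 13898. Hspa1a in HFpEF-scr members lay below the level in Control members, 975 CPM, and in all 3 groups of other barcodes. Apoe, a lipid carrier of macrophages and fibroblasts, was at 2806 against 1137 CPM.

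Scaling by the rule genes in place of all UMIs, added after seeing the data, set aside how much other RNA each droplet held. In the order Control, HFpEF-scr, HFpEF-FoxO1-sh, Pf4 had 968, 960 and 958 UMIs per 1000 rule UMIs, Alox12 107, 114 and 114, and Treml1 75.5, 91.8 and 84.2. In both HFpEF libraries the Pf4 sums include barcodes with macrophage RNA and no platelet profile, described above, and their part was not tested. Within Pf4, Alox12 and Treml1 alike the intervals of the 3 libraries overlapped, but not under every alternative. Without the barcode with most UMIs in each library, Pf4 was at 1.37 (1.22 to 1.53) for HFpEF-scr over Control and at 0.793 (0.719 to 0.875) for HFpEF-FoxO1-sh over HFpEF-scr. In fibroblast-led members HFpEF-FoxO1-sh over HFpEF-scr was 1.27 for Pf4 (1.12 to 1.45) and 0.616 for Treml1 (0.402 to 0.937). Nrgn did not follow them, with 857 (791 to 927), 547 (498 to 600) and 629 (585 to 676), nor did Ctla2a, with 1870 (1771 to 1972), 1103 (1032 to 1177) and 1380 (1314 to 1448). The HFpEF-scr over Control ratio on this scale was 0.638 for Nrgn (0.564 to 0.722) and 0.590 for Ctla2a (0.542 to 0.642). Without the barcode with most UMIs in each library they were 0.822 (0.716 to 0.943) and 0.863 (0.785 to 0.948). In fibroblast-led members alone Nrgn was at 0.935 (0.796 to 1.10) and Ctla2a at 0.723 (0.643 to 0.812). Over members, the median number of Nrgn UMIs per rule UMI was 0.667, 0.722 and 0.556, and that of Ctla2a 1.62, 1.00 and 1.15. By member Control was thus the highest for Ctla2a and not for Nrgn.

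**Figure D5:**
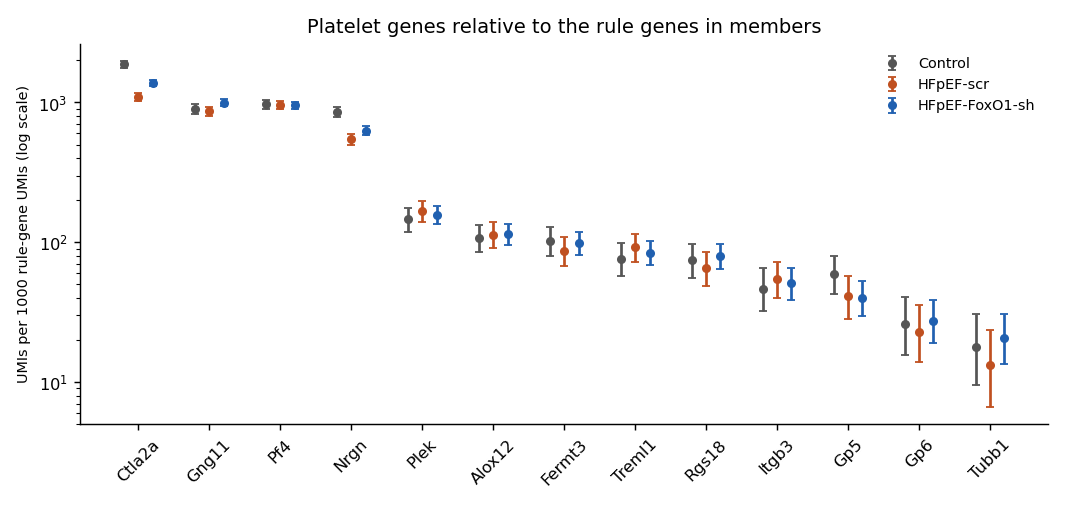
UMIs of 13 platelet genes per 1000 UMIs of the 4 rule genes, summed over members of each library (log axis), with exact 95% Poisson intervals on the gene's UMIs. Pf4, Alox12 and Treml1 overlap in the 3 libraries, and Nrgn and Ctla2a are highest in Control. The Pf4 sums of both HFpEF libraries include barcodes with macrophage RNA and no platelet profile, so the Pf4 overlap is not one of platelet RNA alone.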

How the data were processed

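Single-cell RNA was measured in 3 libraries with a 10x 3' kit, per the labels' protocols. The deposited values are raw UMI counts of genes in barcodes; the submitters' processing notes name Cell Ranger 6.1.2 and mm10. The annotation release and the filter on barcodes are not given in the sources used here; the lowest barcode total was 500 UMIs. Nothing was normalized before deposit, and the files hold 30360 genes and no cell annotation.

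Barcodes were filtered by the rule and UMIs were summed over members, with CPM per 1000000 UMIs of those members. Shares have exact Clopper-Pearson intervals, counts exact Poisson intervals and ratios exact conditional binomial intervals. Log2 ratios used a pseudocount of 1 CPM. With 1 library per group no test across samples was possible. The ratio calls were tested on simulated data. The simulated counts were independent Poisson draws without clumping by barcode, so they do not show how the calls fare with such clumping. Of the T and B cell lists 3 and 4 genes were measured. Doublets were marked with Scrublet in scanpy 1.11.5 (expected rate 12%) and kept in the members. Python 3.11.15, numpy 2.4.6, scipy 1.17.1 and pandas 2.3.3 were used. Promoter letters are from RefSeq, and positions are counted from 1.

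The members and lists were chosen with earlier results of these data known. Named genes were the 5 markers, Pf4, Foxo1, up to 4 genes by log2 ratio and 4 by level in each list, the 10 highest and 10 lowest ratios among called genes with at least 100 UMIs and a UMI in at least 10% of members that stay past 1.5 without their top barcode, and the 15 highest ratios over other barcodes. Alternatives covered the rule cut, the list limit, the mitochondrial limit, depth, doublets, scaling and single barcodes. No column of another series was used. The leading lists, the scaling by rule genes and the values in fibroblast-led members alone were chosen after seeing the data.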

Additional observations from a re-analysis of the deposited data

Results flagged for a closer look

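Barcodes with a rule sum of at least 8 also occurred among those with over 20% and up to 50% mitochondrial UMIs, which the rule leaves out. There were 18 of 6470 in Control (0.278%, exact interval 0.165% to 0.439%), 14 of 6338 in HFpEF-scr (0.221%, 0.121% to 0.370%) and 11 of 2987 in HFpEF-FoxO1-sh (0.368%, 0.184% to 0.658%). They were picked out because the report makes no use of these barcodes and their number lies above the 3 counts that a count of 0 allows. In Control the share was higher than among the members' own barcodes, 0.162%, with overlapping intervals.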

How the results depend on the processing

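Depth sets the limits: the members hold 111 barcodes and 1 library a group, and intervals cover counting error only. No paired analysis was possible because each group has 1 library and no result comes from a test. Of the recomputed main values, 62 stayed within their interval or within 1.5 times the count and 14 did not. Counting only members without any list, 2, 1 and 4 barcodes, the share ratio was 0.434 for HFpEF-scr over Control and 3.43 for HFpEF-FoxO1-sh over HFpEF-scr. With up to 50% mitochondrial UMIs the member share within the endothelial list was 0.259%, against 0.486%. The count of called genes moved with the number of UMIs or members entering. For HFpEF-scr over Control it was 652 with no UMI minimum, 127 at 100 UMIs or more, 59 after thinning to 1000 UMIs, 182 at up to 10% mitochondrial UMIs, 24 in members without any list and 236 in fibroblast-led members. For HFpEF-FoxO1-sh over HFpEF-scr it was 130, 46, 16 and 315 at 100 UMIs, after thinning, without any list and in fibroblast-led members, and 306 at a rule sum of 16 or more. Leaving out the top barcode of each gene gave 270 and 348 calls, of which 230 and 295 were calls before. Without mitochondrial and haemoglobin UMIs 53.2% of 466 calls were higher in HFpEF-FoxO1-sh, against 66.4% of 482.

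Of 55 gene values, 15 changed sign under at least 1 alternative; the cause was not tested. In HFpEF-scr over Control these log2 ratios became 0.18 for Jun after thinning, 0.26 for Fos, 0.21 for Itga2b and 0.51 for Rasgrp2 at up to 10% mitochondrial UMIs, and -2.87 for Hba-a1 and -0.058 for Hbb-bs in fibroblast-led members. In members without any list, 2 against 1 barcode, they became 0.59 for Cd226, 0.47 for Ctla2a, 0.33 for Fermt3, 1.36 for Gng11, 0.0067 for Gp5, 0.43 for Gp9, 0.41 for Itga2b, 0.0067 for Rasgrp2 and 3.17 for Rgs18. In HFpEF-FoxO1-sh over HFpEF-scr, Fcer1g became 0.21 after thinning and Atf3 -2.64 at a rule sum of 16 or more.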
